A study of Mus musculus with 15 samples.

Results

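The genes described here encode complement components, coagulation factors and carrier proteins that the liver secretes into plasma. They were a list of 44 gene symbols, and the transcripts of each symbol were summed to 1 value per gene. All 44 were found among the 35540 gene symbols of the table and all 44 were among the 13916 genes tested. By class they were 19 complement genes, 20 coagulation genes and 5 carrier genes. The libraries came from bulk RNA of mouse liver after 8 weeks of high-fat diet, which all 3 genotypes shared. The groups were 5 wild-type (WT) libraries, 5 libraries of mice with the C247S change in TXNIP (C247S KI) and 5 libraries of mice with the Txnip knockout (KO). TXNIP is the thioredoxin-interacting protein, and C247S alters the cysteine through which it bonds with thioredoxin. The labels used here state no strain, sex or age, no driver of the deletion, and no animal behind each library, so every test here reflects library-to-library spread, which may be technical.

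Hepatocytes make most of the proteins of plasma. Complement is a set of serum proteins in which the lectin, classical and alternative routes cleave C3, after which the terminal components assemble a pore in the target membrane. Coagulation is a cascade of protease zymogens that ends when thrombin turns fibrinogen into fibrin. Natural anticoagulants and the plasmin system hold it in check. Many of these genes also belong to the acute-phase response, in which inflammatory cytokines acting on hepatocytes raise the fibrinogen chains and C3 and lower albumin.

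Library totals lay between 18047577 and 23379940 estimated counts. Levels are given in CPM, counts scaled to a common library total, with TMM (trimmed mean of M-values) factors. In the KO libraries Txnip stood at 70.9, 124, 108, 74.2 and 119 CPM, against 180.4, 196, 319.9, 218 and 197 in WT and 168, 280.2, 99.9, 208 and 205 in C247S KI. Its fall from WT to KO was 1.17 (log2 change -1.17, SE 0.24, edgeR adjusted p = 0.00887), so reads of the targeted gene remained in every KO library. C247S KI 3 stood apart among the listed genes: it was the highest library of its group for 29 of 44, while C247S KI 5 was the lowest for 36 and WT 1 the highest of WT for 28. The TMM factor was lowest of all libraries in C247S KI 3 (0.861) and highest in C247S KI 5 (1.25), and a higher factor lowers CPM. The KO titles carry leading numbers from another range than the WT and C247S KI titles. Whatever that range stands for cannot be told apart from the KO genotype. The KO libraries enter both KO comparisons, so these 2 comparisons share samples and are given side by side.

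The calls among the plasma protein genes came in the 2 KO comparisons, and in KO against C247S KI most were coagulation genes. In C247S KI against WT, 0 of 44 passed an adjusted p of 0.05 in edgeR's quasi-likelihood test, where 0.0862% of all genes tested passed. DESeq2 (0.468% of all genes) and limma-voom (0.0647%) also called 0 of them, and 8 of 44 had an unadjusted p below 0.05 in edgeR, beside 9.85% of all genes tested. In KO against WT 5 of 44 passed (11.4%), beside 6.75% of all genes tested and 8.81% of genes with a mean of at least 40 CPM, a level that 43 of the 44 reached. C6 and F11 rose, where 2.56% of all genes rose, and Cfi, F9 and Alb fell, where 4.19% fell. At an unadjusted p below 0.05 there were 12 of 44, beside 23.3% of all genes. In KO against C247S KI 8 of 44 passed (18.2%), beside 10.3% of all genes tested and 14.2% of those with at least 40 CPM. Klkb1 rose there, beside 4.41% of all genes, and Cfi, Fga, Fgb, Fgg, F9, Pros1 and Alb fell, beside 5.85%. At an unadjusted p below 0.05 there were 15 of 44, beside 27.0% of all genes. By class, edgeR called 2 of 19 complement, 2 of 20 coagulation and 1 of 5 carrier genes in KO against WT, beside 6.75%. In KO against C247S KI it called 1 of 19, 6 of 20 and 1 of 5, beside 10.3%. The 3 fibrinogen chains were among those coagulation genes. DESeq2 called 7 of 44 in KO against WT, with C1s1 and Gc added, beside 10.8% of all genes, and 13 in KO against C247S KI, with C1s1, C4b, Cfb, Hc and Proc added, beside 14.2%. With limma-voom 4 passed in KO against WT, without F9, beside 6.11% of all genes. It called 7 in KO against C247S KI, without Fgb and Fgg and with C4b, beside 9.69%.

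The median log2 difference over the 44 genes was 0.15 in C247S KI against WT, -0.07 in KO against WT and -0.14 in KO against C247S KI. Over all genes tested it was 0.00, -0.01 and -0.03. The libraries of the groups did not overlap for 1 of the 44 genes in C247S KI against WT, where 1.32% of all genes tested did not. That gene was Masp1, higher in C247S KI. In KO against WT, 6 of the 44 did not overlap, beside 9.6% of all genes, with C6 higher and C1s1, Cfb, Cfi, F9 and Alb lower in KO. In KO against C247S KI 9 of the 44 did not overlap, beside 9.67% of all genes. Klkb1 and Proc were higher in KO there, and C1s1, Cfi, Fga, Fgb, Fgg, F9 and Alb were lower.

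**Figure D1:**
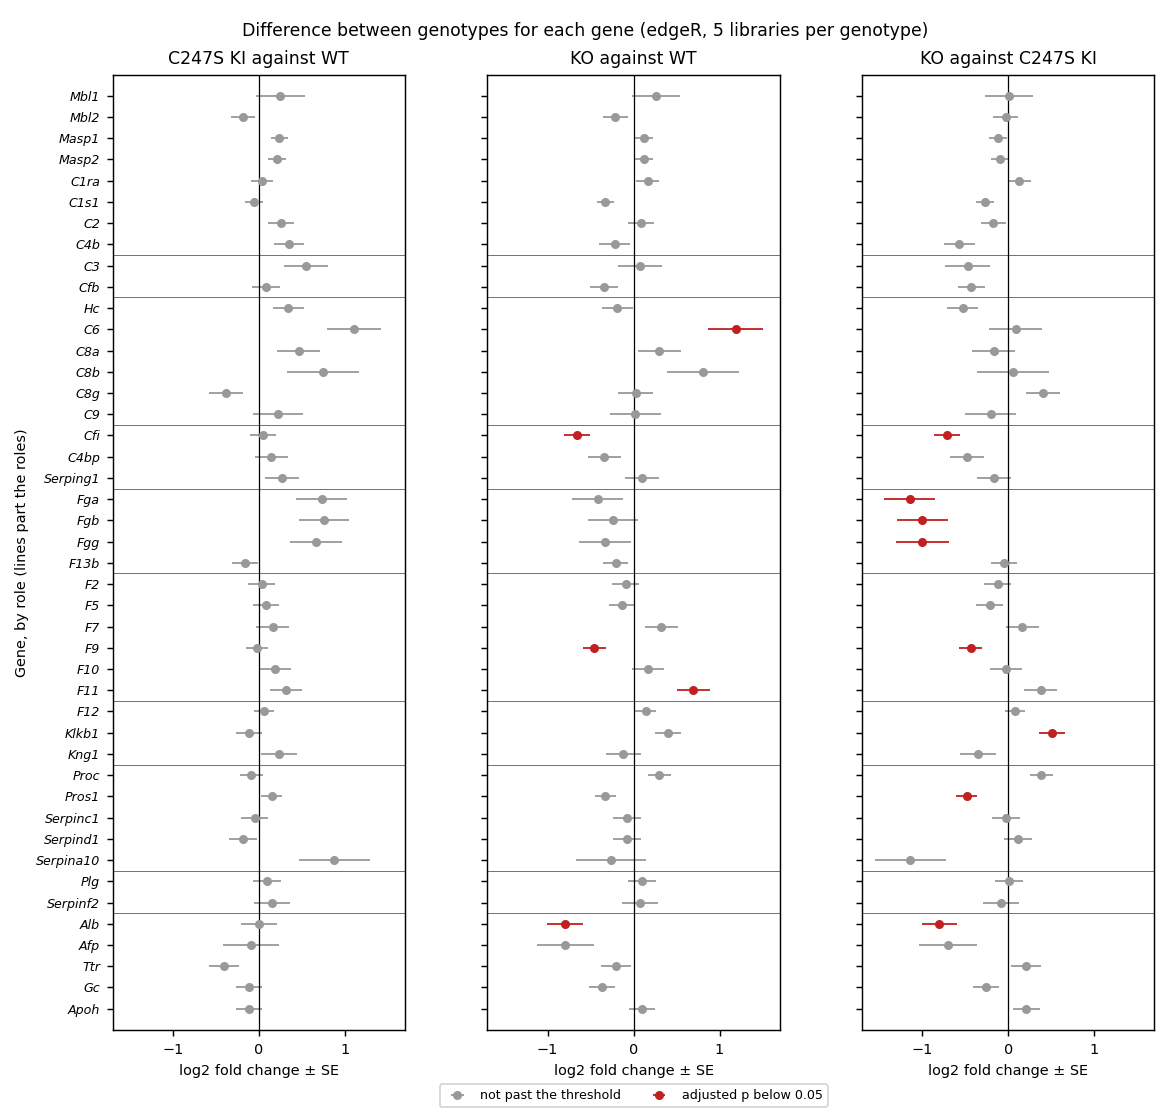
Log2 fold change (x axis, with its SE as a bar) of each of the 44 genes (y axis, ordered by role) in the 3 comparisons, from edgeR over 15 libraries, 5 per genotype. Red points passed an adjusted p of 0.05: 0 in C247S KI against WT, 5 in KO against WT and 8 in KO against C247S KI.

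Of the 8 genes of the lectin and classical routes 0 passed in any edgeR comparison. At an unadjusted p below 0.05 there were 1 in C247S KI against WT, 1 in KO against WT and 2 in KO against C247S KI. DESeq2 called 0, 1 and 2 of them and limma-voom 0, 0 and 1. Mbl1 and Mbl2 encode the mannose-binding lectins that recognise microbial sugars. Mbl1 averaged 118 ± 17.4 (WT), 140.3 ± 88.7 (C247S KI) and 141 ± 29.3 CPM (KO) (mean ± SD, n = 5 libraries each, as in all means below). Mbl2 averaged 278 ± 31.8 (WT), 245 ± 24.3 (C247S KI) and 240.0 ± 53.7 CPM (KO). The large SD of Mbl1 in C247S KI went with 296 CPM in C247S KI 3, against at most 125 in the group's other libraries.

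Masp1 and Masp2 encode serine proteases that the lectins activate. Masp1 averaged 100.2 ± 11.3 (WT), 118 ± 5.87 (C247S KI) and 109 ± 9.57 CPM (KO). Masp2 averaged 188 ± 21.1 (WT), 218 ± 19.8 (C247S KI) and 204 ± 11.8 CPM (KO). Masp1 was higher in every C247S KI library than in any WT library, with a log2 difference of 0.24 (SE 0.10, edgeR adjusted p = 0.471) that did not pass the threshold.

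C1ra and C1s1 encode the protease pair of the classical C1 complex. C1s1 stood at 454, 554, 533, 532 and 555 CPM in WT libraries 1 to 5, at 521, 557, 457, 466 and 524 in C247S KI and at 410.0, 416, 419.6, 419.5 and 432 in KO. All 5 KO libraries lay below all 10 others with a coefficient of variation of 1.91% in KO, the smallest of any listed gene in any genotype. Its log2 difference was -0.33 (SE 0.10, edgeR adjusted p = 0.0629) in KO against WT and -0.27 (SE 0.10, edgeR adjusted p = 0.104) in KO against C247S KI, neither past the threshold. C1ra averaged 237 ± 18.7 (WT), 243 ± 48.2 (C247S KI) and 266 ± 22.7 CPM (KO). Their near-copies C1rb and C1s2 held at most 0.434 CPM and 0.116 CPM in any library. How many reads fit both copies was not measured, so C1ra and C1s1 carry that uncertainty.

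C2 and C4b form the C3-cleaving enzyme of these routes. C2 averaged 81.9 ± 13.1 (WT), 98.1 ± 21.4 (C247S KI) and 87.0 ± 9.76 CPM (KO). C4b averaged 1986 ± 389.8 (WT), 2534 ± 498 (C247S KI) and 1706 ± 319.9 CPM (KO), and its log2 difference in KO against C247S KI was -0.57 (SE 0.18, edgeR adjusted p = 0.0515). The near-identical gene C4a was not analysed here, so reads that fit both copies are uncertain for C4b.

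C3 is the component on which all routes converge, and Cfb, complement factor B, builds the alternative route's enzyme with it. Neither passed the threshold in edgeR. C3 stood at 5943, 4709, 4628, 5312 and 6366 CPM in WT libraries 1 to 5, at 6258, 6547, 14580, 8238 and 3839 in C247S KI and at 5865, 6166, 5061, 5159 and 6178 in KO. C247S KI 3 stood far above all other libraries, and the KO libraries lay inside the WT range. Cfb stood at 1138, 1020, 1175, 1190 and 1116 CPM in WT libraries 1 to 5, at 1137, 1078, 1766, 1145 and 849.7 in C247S KI and at 855, 987, 792, 943 and 862 in KO. Every KO library lay below every WT library, but C247S KI 5 fell among the KO libraries. The log2 difference of Cfb was -0.35 in KO against WT (SE 0.16, edgeR adjusted p = 0.205).

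In the terminal pathway C6, which joins the forming membrane pore, rose in KO against WT. C6 stood at 122, 74.3, 63.2, 72.5 and 95.1 CPM in WT libraries 1 to 5, at 91.0, 238, 312, 199 and 77.3 in C247S KI and at 127, 207, 236, 189 and 213 in KO. Each KO library exceeded each WT library, whereas the C247S KI libraries spanned both ranges, with 3 inside or above the KO range and 2 inside the WT range. From WT to KO it rose by 1.19 on the log2 scale, a fold of 2.28 (SE 0.32, edgeR adjusted p = 0.0324). C247S KI differed from WT by 1.10 (SE 0.32, edgeR adjusted p = 0.288), which did not pass, and KO differed from C247S KI by 0.09 (SE 0.31). The call was lost without WT 2, WT 3, WT 4 or any of KO 2 to KO 5, with adjusted p up to 0.079. C6 was the listed gene with the largest positive log2 difference from WT in both comparisons with WT.

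The other terminal genes did not pass in edgeR. Hc, the mouse C5, averaged 682 ± 142 (WT), 864 ± 197 (C247S KI) and 598 ± 82.1 CPM (KO), with a log2 difference of -0.53 in KO against C247S KI (SE 0.18, edgeR adjusted p = 0.0672). C8a averaged 428 ± 145 (WT), 591 ± 233 (C247S KI) and 526 ± 70.1 CPM (KO). C8b averaged 126 ± 80.0 (WT), 213 ± 146 (C247S KI) and 221 ± 37.1 CPM (KO), with 269 CPM in WT 1 against at most 99.4 in the other WT libraries. The spread was wide, and C8b ranged 7.76-fold and C8a 3.28-fold over the 15 libraries. C8g, the small chain of C8, averaged 365 ± 79.2 (WT), 279.8 ± 72.8 (C247S KI) and 371 ± 68.4 CPM (KO). C9, which forms the ring of the pore, averaged 342 ± 98.3 (WT), 399.7 ± 220.4 (C247S KI) and 347 ± 50.5 CPM (KO). The labels give no sex, on which terminal components are known to depend in mice; Ddx3y, a Y-linked gene, was measured in all 15 libraries at 35.7 to 71 CPM.

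Of the 3 complement inhibitors Cfi fell in both KO comparisons. Cfi encodes complement factor I, the protease that cuts C3b and C4b with cofactors. Cfi stood at 787, 564, 625, 691 and 560.0 CPM in WT libraries 1 to 5, at 689.9, 664, 859, 670.2 and 458 in C247S KI and at 387, 453, 375, 418 and 409.5 in KO. All KO libraries lay below every WT and every C247S KI library, and the KO libraries spanned only 375 to 453 CPM. The fall from WT to KO was 0.66 (log2 change -0.66, a level 1.58-fold higher in WT, SE 0.15, edgeR adjusted p = 0.0155). Relative to C247S KI, Cfi fell by 0.71 (SE 0.15, edgeR adjusted p = 0.00725). C247S KI differed from WT by 0.05 (SE 0.15, edgeR adjusted p = 0.927), and it turned to -0.05 without C247S KI 3. Cfi was the 1 listed gene whose calls in both KO comparisons held under all 28 alternatives, with adjusted p of at most 0.0488 and 0.0259.

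C4bp, the C4b-binding protein that serves as a cofactor of factor I, averaged 503 ± 93.6 (WT), 555 ± 198 (C247S KI) and 398 ± 39.4 CPM (KO). Serping1, the C1 inhibitor, which also blocks plasma kallikrein and factor XIIa, averaged 628 ± 45.2 (WT), 758 ± 277 (C247S KI) and 673 ± 73.7 CPM (KO). Neither passed in any edgeR comparison. The log2 differences of C4bp were -0.34 (SE 0.19) in KO against WT and -0.48 (SE 0.19) in KO against C247S KI.

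**Figure D2:**
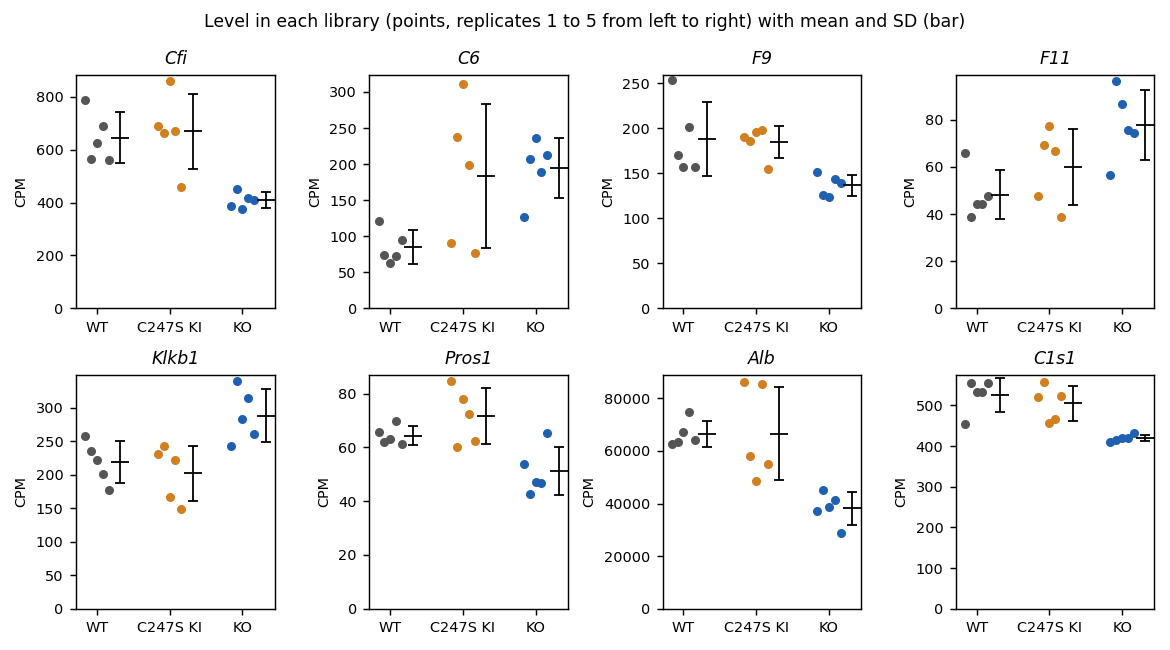
CPM (y axis, from 0) of 8 genes in each library (points) of WT, C247S KI and KO, with the mean and SD of the 5 libraries beside them. The KO points of Cfi, F9, Alb and C1s1 lie below all WT and C247S KI points, and those of C6 above all WT points.

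The 3 fibrinogen chains fell in KO against C247S KI and moved together across the libraries. Fga, Fgb and Fgg encode the α, β and γ chains, which assemble into 1 secreted protein, and they lie side by side on chromosome 3 of GRCm38: Fgg at chr3:83007724-83015049 on the plus strand, Fga at chr3:83026076-83033627 on the plus strand and Fgb at chr3:83040141-83049863 on the minus strand. Their upstream sequences are shown because the 3 genes moved together. They were taken from RefSeq (GRCm38.p6), up to 250 bases before the RefSeq start and without any base of an annotated transcript, and are written 5′ to 3′ on the gene's strand. Capitals mark matches on either strand to 3 motifs: CTGGGAA, an IL-6 response motif of acute-phase genes, TTCNNNGAA, a STAT motif, and TTGCNNAA, a C/EBP motif.
Fga promoter, chr3:83025903-83026075: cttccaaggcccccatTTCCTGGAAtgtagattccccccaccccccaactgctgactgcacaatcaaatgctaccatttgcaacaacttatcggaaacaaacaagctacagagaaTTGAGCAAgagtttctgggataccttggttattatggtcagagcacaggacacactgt
Fgb promoter, chr3:83049864-83050113: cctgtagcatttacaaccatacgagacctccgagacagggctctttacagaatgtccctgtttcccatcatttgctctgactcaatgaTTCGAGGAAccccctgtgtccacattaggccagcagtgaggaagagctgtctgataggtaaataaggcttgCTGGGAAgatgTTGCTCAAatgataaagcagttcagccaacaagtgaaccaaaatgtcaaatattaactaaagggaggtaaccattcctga
Fgg promoter, chr3:83007474-83007723: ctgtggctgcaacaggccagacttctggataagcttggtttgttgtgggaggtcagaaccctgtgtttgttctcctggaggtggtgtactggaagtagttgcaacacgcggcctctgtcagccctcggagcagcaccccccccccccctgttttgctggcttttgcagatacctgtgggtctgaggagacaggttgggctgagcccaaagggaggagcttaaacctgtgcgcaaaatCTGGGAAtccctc
In the Fgb promoter CTGGGAA began 91 bases, TTCNNNGAA 162 bases and TTGCNNAA 80 bases before the start. The Fgg promoter held CTGGGAA, and the Fga promoter held TTCNNNGAA and TTGCNNAA. Of the 33 listed genes with an entry, 6 (18.2%) held CTGGGAA, against 9.1% of all 32851 promoters. TTCNNNGAA was in 6 (18.2%) against 7.02%, and TTGCNNAA in 10 (30.3%) against 9.56%. CACGTG, an E-box, was in 0 against 6.02%. The palindromic HNF1 motif was in 0 against 0.00913%. The STAT motif can overlap CTGGGAA, and a match is a description of the letters only.

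Fga stood at 4370, 3144, 2972, 4293 and 5015 CPM in WT libraries 1 to 5, at 3936, 4097, 12757, 8308 and 3808 in C247S KI and at 2535, 3162, 2881, 3074 and 3197 in KO. Fgb stood at 4099, 2601, 2695, 3642 and 4150 CPM in WT libraries 1 to 5, at 3458, 3672, 11353, 7093 and 3486 in C247S KI and at 2413, 3300, 2665, 2865 and 3309 in KO. Fgg stood at 3865, 2231, 2229, 3193 and 3529 CPM in WT libraries 1 to 5, at 2818, 2912, 9413, 5827 and 2845 in C247S KI and at 2005, 2780, 2229, 2410 and 2503 in KO. For all 3 chains every KO library lay below every C247S KI library, while KO and WT libraries overlapped, and C247S KI 3 and 4 stood above all others. The ratio of Fga to Fgb CPM stayed between 0.958 and 1.21 and that of Fgg to Fgb between 0.756 and 0.943 over the 15 libraries, beside a 5.03-fold range of Fga itself.

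From C247S KI to KO, Fga fell by 1.15 (log2 change -1.15, SE 0.30, edgeR adjusted p = 0.0224). Fgb fell by 0.998 (SE 0.30, edgeR adjusted p = 0.0407) and Fgg by 0.998 (SE 0.30, edgeR adjusted p = 0.0455). Without C247S KI 3 the differences were -0.77 (edgeR adjusted p = 0.032), -0.61 (0.0725) and -0.60 (0.0864), so the calls of Fgb and Fgg were lost. Without C247S KI 4 all 3 calls were lost (edgeR adjusted p = 0.0507, 0.0854 and 0.0937). The call of Fga was also lost without KO 2, KO 3 or KO 4, that of Fgb without WT 4 or any KO library, and that of Fgg without WT 2 to WT 5 or any KO library. With limma-voom the calls of Fgb and Fgg were lost (adjusted p = 0.0656 and 0.0758). Without C247S KI 3 and 4 together, a choice made after seeing their fibrinogen levels, they were -0.42, -0.29 and -0.27. In KO against WT the log2 differences were -0.42 (SE 0.30), -0.24 (SE 0.29) and -0.34 (SE 0.30), and in C247S KI against WT they were 0.73, 0.76 and 0.66, none past the threshold.

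The libraries high in fibrinogen were also high in acute-phase genes outside the list. Serum amyloid A gene Saa1 stood at 448, 503, 24630, 3357 and 908 CPM in C247S KI libraries 1 to 5, at 1029, 182, 674, 822 and 1154 in WT and at 123, 102, 58.1, 110.0 and 153 in KO. Haptoglobin, Hp, stood at 4477, 4385, 22620, 8179 and 3529 CPM in C247S KI, and C247S KI 3 again exceeded every other library. C247S KI 4 was not high in hemopexin, Hpx, at 5998 CPM against 6640 in WT 1. Nor was it high in ceruloplasmin, Cp, at 916 CPM against 985 in WT 4. The part of this response in the fibrinogen difference was not tested.

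**Figure D3:**
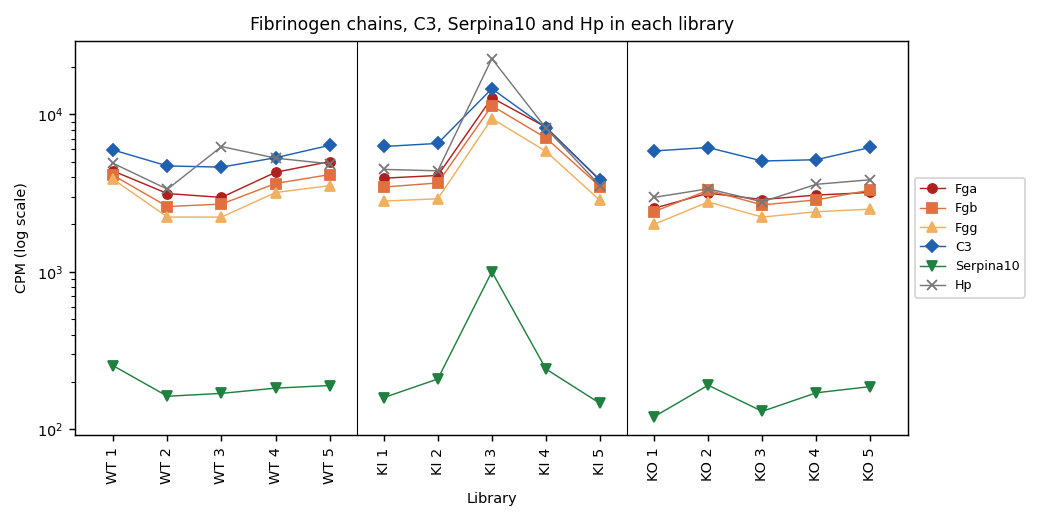
CPM on a log scale (y axis) of Fga, Fgb, Fgg, C3, Serpina10 and Hp in each of the 15 libraries (x axis, 5 per genotype, joined within a genotype only to guide the eye). All 6 genes peak in C247S KI 3, at 12757 CPM for Fga and 1002 for Serpina10.

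F13b, the carrier subunit of the fibrin-crosslinking factor XIII, stood at 224, 146, 131, 176 and 122 CPM in WT libraries 1 to 5, at 156, 155, 116, 156 and 132 in C247S KI and at 137, 146, 142, 135 and 132 in KO. The 3 groups overlapped, and its log2 difference in KO against WT was -0.21 (SE 0.15, edgeR adjusted p = 0.428). F13b did not follow the fibrinogen chains in C247S KI 3, where it was the lowest of its group.

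Among the 6 procoagulant genes F9 fell in both KO comparisons and F11 rose in KO against WT. F9 encodes factor IX, the vitamin K-dependent protease missing in haemophilia B. F9 stood at 253, 170.1, 157, 202 and 157 CPM in WT libraries 1 to 5, at 189.8, 186, 196, 198 and 155 in C247S KI and at 152, 126, 124, 143 and 139.7 in KO. Each KO library lay below each WT and each C247S KI library, and C247S KI 5 came closest to the KO range. The falls of F9 were 0.46 in KO against WT (log2 change -0.46, SE 0.13, edgeR adjusted p = 0.0499) and 0.43 in KO against C247S KI (log2 change -0.43, SE 0.13, edgeR adjusted p = 0.0474). Both calls sat at the threshold, and limma-voom lost the first (adjusted p = 0.057). Leaving out single libraries, the first held only without WT 3, WT 5, C247S KI 3 or C247S KI 5 and the second only without WT 1, WT 3, WT 5 or C247S KI 5, with adjusted p up to 0.13 and 0.125 otherwise.

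F11 encodes factor XI, which activates factor IX. F11 stood at 65.9, 38.8, 44.3, 44.1 and 47.8 CPM in WT libraries 1 to 5, at 47.6, 69.1, 77.5, 66.9 and 38.9 in C247S KI and at 56.5, 96.2, 86.5, 75.8 and 74.2 in KO. The KO libraries were higher than 4 of the 5 WT libraries, WT 1 lay between KO 1 and the others, and the C247S KI libraries overlapped both groups. F11 rose by 0.69 in KO against WT, a fold of 1.62 (SE 0.19, edgeR adjusted p = 0.0377), and this call was lost without any of WT 2 to WT 5 or KO 2 to KO 5, with adjusted p up to 0.0971. In KO against C247S KI the log2 difference was 0.38 (SE 0.19, edgeR adjusted p = 0.212).

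The other procoagulant genes passed in no edgeR comparison. F2, prothrombin, averaged 2038 ± 185 (WT), 2086 ± 461 (C247S KI) and 1915 ± 193 CPM (KO). F5, the cofactor factor V, averaged 408 ± 48.7 (WT), 432 ± 99.6 (C247S KI) and 372 ± 34.6 CPM (KO). F7, which starts the extrinsic route with tissue factor, averaged 99.0 ± 13.4 (WT), 111 ± 39.0 (C247S KI) and 124 ± 12.5 CPM (KO). F10, which turns prothrombin into thrombin, averaged 398 ± 48.0 (WT), 454 ± 148 (C247S KI) and 447 ± 55.4 CPM (KO). F7 and F10 are neighbours on chromosome 8, and both had log2 differences of at most 0.32 in size in every comparison.

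In the contact system, Klkb1 rose in KO against C247S KI. Klkb1 encodes plasma prekallikrein and is the neighbour of F11 on chromosome 8, Klkb1 at chr8:45266689-45294859 and F11 at chr8:45241174-45262031, both on the minus strand. Klkb1 stood at 257, 236, 221, 202 and 177 CPM in WT libraries 1 to 5, at 231, 242, 167, 222 and 149 in C247S KI and at 243, 339.5, 283, 315 and 261 in KO. Each KO library exceeded each C247S KI library, KO 1 and C247S KI 2 by the least, while WT 1 lay above KO 1. Klkb1 rose by 0.51 in KO against C247S KI (SE 0.15, edgeR adjusted p = 0.0399), and in KO against WT its log2 difference was 0.40 (SE 0.15, edgeR adjusted p = 0.118). The call was lost without WT 2, WT 4, C247S KI 1, C247S KI 3, C247S KI 5 or any of KO 2 to KO 5, with adjusted p up to 0.114. The ratio of Klkb1 to F11 CPM ranged from 2.15 to 6.08 over the libraries, so the 2 neighbours did not keep a fixed proportion as the fibrinogen chains did.

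F12, factor XII, which starts the contact route, averaged 517 ± 16.8 (WT), 539 ± 84.5 (C247S KI) and 569.7 ± 41.2 CPM (KO) and was among the steadiest listed genes in WT. Kng1, the kininogen that carries prekallikrein and releases bradykinin, averaged 1481 ± 345 (WT), 1739 ± 539 (C247S KI) and 1366 ± 229 CPM (KO). Neither passed in any edgeR comparison. Kng2, a close relative of Kng1, held 174 to 362 CPM, so reads shared by both copies are uncertain.

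Of the 5 anticoagulant genes Pros1 fell in KO against C247S KI. Pros1 encodes protein S, the cofactor of activated protein C. Pros1 stood at 65.8, 62.0, 63.0, 69.8 and 61.4 CPM in WT libraries 1 to 5, at 84.8, 60.2, 78, 72.4 and 62.3 in C247S KI and at 53.9, 42.8, 47.1, 46.9 and 65.4 in KO. In 4 of the 5 KO libraries it was below all WT and C247S KI libraries, and KO 5 lay inside both ranges. The fall of Pros1 from C247S KI to KO was 0.48 (log2 change -0.48, SE 0.12, edgeR adjusted p = 0.0203), and in KO against WT its log2 difference was -0.33 (SE 0.12, edgeR adjusted p = 0.112). The call was lost without C247S KI 1, KO 2, KO 3 or KO 4, with adjusted p up to 0.078.

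Proc, protein C itself, stood at 496, 458, 561, 512 and 482 CPM in WT libraries 1 to 5, at 451, 498, 524, 548 and 345 in C247S KI and at 555, 709, 572, 668 and 587 in KO. It was higher in each KO library than in each C247S KI library, with a log2 difference of 0.39 (SE 0.13, edgeR adjusted p = 0.0715) that did not pass. Serpinc1, antithrombin, averaged 1553 ± 307 (WT), 1499 ± 246 (C247S KI) and 1475 ± 184 CPM (KO). Serpind1, heparin cofactor II, averaged 389.9 ± 91.4 (WT), 343 ± 63.0 (C247S KI) and 371 ± 30.0 CPM (KO). Antithrombin and heparin cofactor II, the thrombin inhibitors, had log2 differences of at most 0.19 in size in any comparison.

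Serpina10, the protein Z-dependent inhibitor of factor Xa, stood at 253, 162, 169, 183 and 189.8 CPM in WT libraries 1 to 5, at 159, 209, 1002, 242 and 146 in C247S KI and at 120.2, 191, 130.1, 171 and 187 in KO. C247S KI 3 stood far above the next library, WT 1, and the other 4 of its group overlapped WT and KO. The log2 difference in KO against C247S KI was -1.14 (SE 0.42, edgeR adjusted p = 0.0903), large but not past the threshold.

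The 2 fibrinolysis genes showed no call in edgeR, DESeq2 or limma-voom, and 0 had an unadjusted edgeR p below 0.05. Plg, plasminogen, stood at 2581, 2109, 2248, 2367 and 2237 CPM in WT libraries 1 to 5, at 2371, 2510, 3229, 2662 and 1543 in C247S KI and at 2265, 2697, 2491, 2434 and 2484 in KO, with a log2 difference of 0.10 in KO against WT (SE 0.16, edgeR adjusted p = 0.759). The groups overlapped, and C247S KI 5 was the lowest library. Serpinf2, the main inhibitor of plasmin, averaged 767 ± 69.7 (WT), 854 ± 331 (C247S KI) and 807 ± 113 CPM (KO).

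Among the carriers Alb, serum albumin, fell in KO. Alb stood at 62518, 63415, 67136, 74948 and 64172 CPM in WT libraries 1 to 5, at 86060, 58154, 48458, 85403 and 55016 in C247S KI and at 36996, 45294, 38820, 41421 and 28613 in KO. The KO libraries were all below every other library, while the C247S KI libraries spread more widely than WT on both sides. The fall of Alb from C247S KI to KO was 0.80 (log2 change -0.80, SE 0.21, edgeR adjusted p = 0.0218), beside 0.80 from WT (log2 change -0.80, SE 0.21, edgeR adjusted p = 0.0294). The call against WT was lost without WT 2, WT 3, WT 4, KO 1, KO 3, KO 4 or KO 5 (adjusted p up to 0.0945), and that against C247S KI without C247S KI 1, C247S KI 4 or KO 5 (up to 0.0685). Both calls were also lost with no count filter, and the second in a fit of only the groups compared. Over all alternatives the edgeR adjusted p reached 0.132 and 0.109. In C247S KI 3, the library with the highest fibrinogen, Alb was the lowest of its group.

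The promoter of Alb is shown because Alb was the carrier that fell in KO. Capitals mark TTANGTAA, a D-box bound by the PAR bZIP factors such as DBP, and TTGCNNAA, again on either strand.
Alb promoter, chr5:90460620-90460869: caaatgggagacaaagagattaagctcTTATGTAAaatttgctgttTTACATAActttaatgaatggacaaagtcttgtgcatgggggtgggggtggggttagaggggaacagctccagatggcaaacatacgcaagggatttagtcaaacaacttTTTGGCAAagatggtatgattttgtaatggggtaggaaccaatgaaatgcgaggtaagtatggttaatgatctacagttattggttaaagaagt
The D-box occurred in 2 of the 33 listed genes with an entry (Alb and F13b, 6.06%) and in 2.06% of all promoters.

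The other 4 carriers did not pass in edgeR, although DESeq2 called Gc in KO against WT. Ttr, transthyretin, which carries thyroid hormone and retinol-binding protein, averaged 5302 ± 805 (WT), 4004 ± 552 (C247S KI) and 4611 ± 1050 CPM (KO). C247S KI differed from WT by -0.41 (SE 0.18, edgeR adjusted p = 0.48). Gc, the vitamin D-binding protein, averaged 5439 ± 626 (WT), 5033 ± 709 (C247S KI) and 4216 ± 439.7 CPM (KO), with a log2 difference of -0.37 in KO against WT (SE 0.15, edgeR adjusted p = 0.144). Apoh, β2-glycoprotein I, averaged 1992 ± 191 (WT), 1839 ± 345 (C247S KI) and 2130 ± 283 CPM (KO). Afp, the fetal relative of albumin and its neighbour on chromosome 5, was barely measured, at 1.11 ± 0.375 (WT), 1.05 ± 0.301 (C247S KI) and 0.638 ± 0.282 CPM (KO).

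Albumin held more counts than any other listed gene in every library. Of all counts, the 44 genes together held 10.9% to 12.2% in WT libraries, 11% to 13.5% in those of C247S KI and 7.35% to 9.02% in those of KO. Albumin alone held 5.85% to 7.22%, 4.17% to 8.59% and 2.88% to 4.29%. For the other 43 genes the ranges were 4.56% to 5.29%, 4.61% to 7.58% and 4.12% to 4.73%, and KO and WT overlapped. With library sizes counted without the listed genes, 4 of 44 passed in KO against WT, beside 6.62% of all genes tested. In KO against C247S KI 8 of 44 passed with these sizes, beside 10% of all genes tested.

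Per transcript length, in TPM computed from the deposited counts and annotated lengths, Alb was also the most abundant listed gene in WT at 51800 ± 5172 (mean ± SD, n = 5). Ttr followed at 7049 ± 865 and Gc at 4774 ± 295. Fga at 2984 ± 741, Fgg at 2784 ± 656 and Apoh at 2641 ± 115 came next and differed by less than the SD of Fga. C3, at 1759 ± 252, was the most abundant complement gene, and C6, Masp1, F11 and Pros1 stood between 47.6 and 33.9. The genes called in KO therefore ran from the most abundant carrier to some of the scarcest factors.

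Spread within a genotype also differed. The median coefficient of variation of the 44 genes was 14.8% (WT), 23.9% (C247S KI) and 12.3% (KO), beside 14.9%, 16.7% and 10.8% for all genes with at least 40 CPM. Without C247S KI 3 the C247S KI value was 21.2%, beside 13.7%. In KO the steadiest gene was C1s1 (1.91%) and the most variable was Afp (44.1%). In C247S KI they were Masp1 (4.96%) and Serpina10 (104%). C247S KI 3 was the highest and C247S KI 5 the lowest library of its group for most of the list, with median log2 distances of 0.45 and -0.42 from the WT mean. These distances include the TMM factors, 0.861 and 1.25, the lowest and highest of all libraries. Without that scaling the 44 genes held 11.46% of the counts of C247S KI 5, inside the WT range of 10.88% to 12.24%. The part of the scaling in these distances was not tested.

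**Figure D4:**
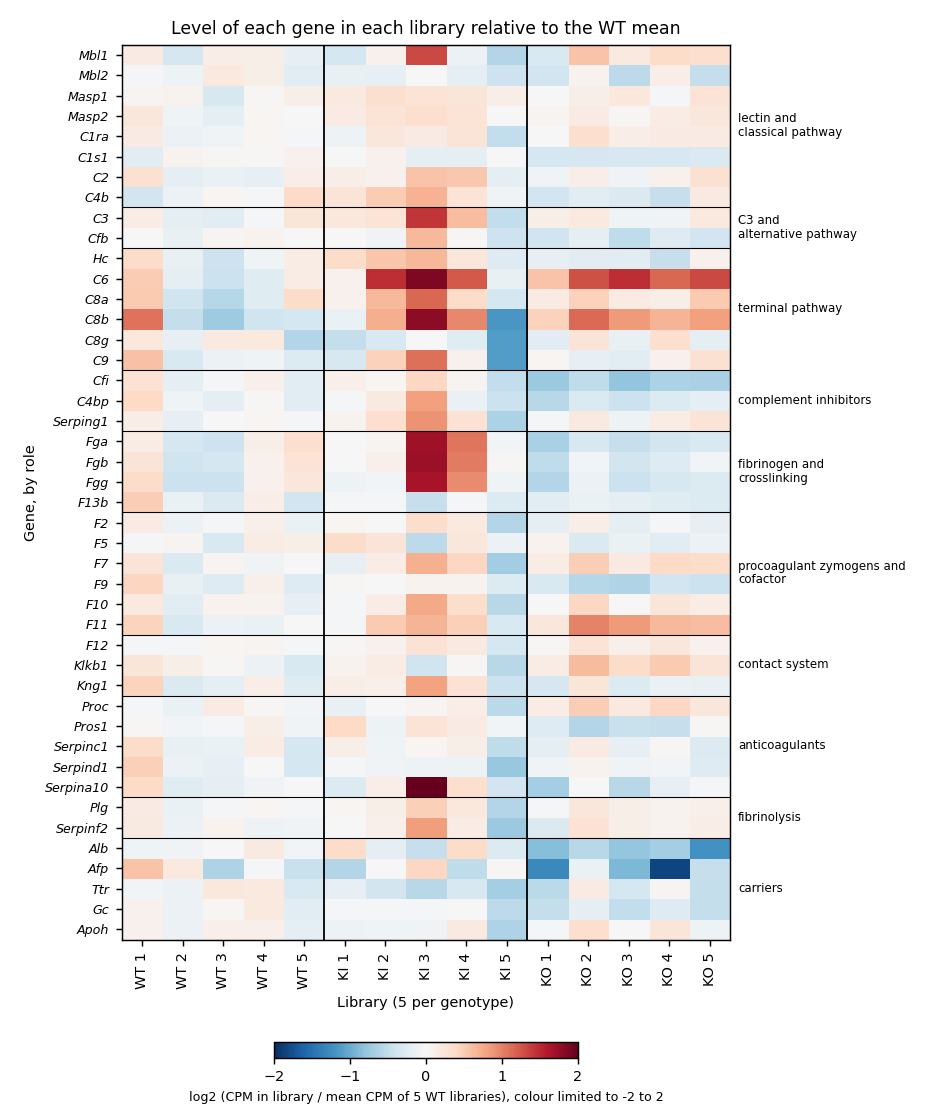
Log2 ratio of each gene (rows, by role) in each library (columns, 5 per genotype) to its mean in the 5 WT libraries, with red above and blue below, and colour limited to 2 in either direction. C247S KI 3 is red and C247S KI 5 blue over most rows, and Cfi and Alb are blue in all 5 KO libraries.

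**Figure D5:**
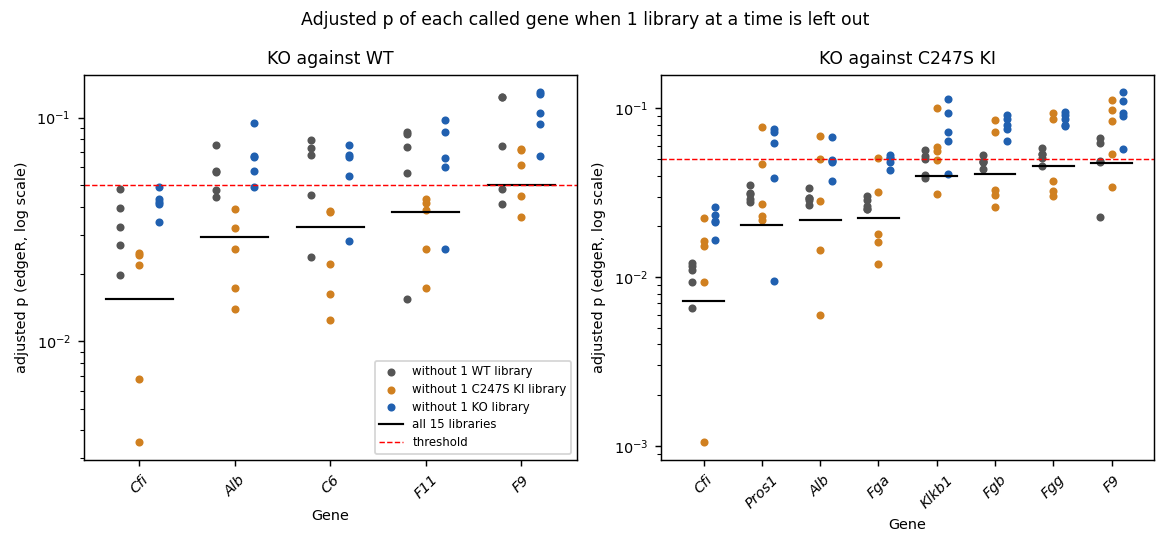
Adjusted p from edgeR (y axis, log scale) of each called gene with all 15 libraries (black bar) and with each single library left out (points, coloured by the genotype left out). All points of Cfi lie under the dashed threshold of 0.05, and each other called gene has points above it.

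How the calls depended on single libraries was thus uneven. Leaving out 1 library at a time gave 1 to 6 called genes in KO against WT and 2 to 10 in KO against C247S KI. The share of all genes tested that passed moved too. It ran from 3.7% without KO 2 to 8.94% without C247S KI 3 in KO against WT. In KO against C247S KI it ran from 5.56% without KO 2 to 16.1% without C247S KI 3. The count of 1 in KO against WT came without WT 2, WT 4, KO 3, KO 4 or KO 5, and it was 2 without WT 3 or KO 2 and 3 without KO 1. In KO against C247S KI the count was 2 without KO 2, KO 3 or KO 4, 3 without C247S KI 4, 4 without WT 4, C247S KI 1 or KO 5, and 5 without WT 2 or KO 1. Without WT 1, C247S KI 3 and C247S KI 5 together 9 genes passed in KO against WT, and the share of all genes rose to 10.9%. In KO against C247S KI 10 passed there, and the share of all genes rose to 12%. Without C247S KI 3 the median log2 difference of the list in C247S KI against WT was -0.01 and 21 of 44 genes were positive, against 31 with all libraries.

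Single transcripts gave 1 call among the 122 tested of 148 listed transcripts. Cfi-201, which held nearly all Cfi counts, fell by 0.70 in KO against C247S KI (SE 0.16, edgeR adjusted p = 0.0343), where 1.59% of 32585 transcripts passed. In KO against WT 0 passed (18 at an unadjusted p below 0.05, 0.641% of all transcripts called, and 1 with limma-voom), and in C247S KI against WT 0 passed (11 at an unadjusted p below 0.05, 0.00614% of all called, and 0 with limma-voom). Fgg-202 held 21.6% ± 1.71, 22.2% ± 2.96 and 20.1% ± 0.85 of Fgg counts (WT, C247S KI and KO, in this order). Masp1-201 held 65.3% ± 5.12, 70.8% ± 7.13 and 71.5% ± 1.5 of Masp1, and Kng1-202 held 72.1% ± 3.28, 74.2% ± 2.9 and 71.5% ± 0.824 of Kng1 (SD, n = 5 each). The split of reads between transcripts is itself an estimate.

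Other genes of the same pathways were taken from 6 lists, in which 0 of 94 genes tested passed in C247S KI against WT in edgeR (13 at an unadjusted p below 0.05, 1 with DESeq2 and 0 with limma-voom). In edgeR, 8 of the 94 passed in KO against WT and 20 in KO against C247S KI. Of all genes tested, 0.0862%, 6.75% and 10.3% passed in the 3 comparisons. Among 12 further complement genes tested, 1 fell and 0 rose in KO against WT, beside 4.19% and 2.56% of all genes. That gene was Cfd, the protease factor D that starts the alternative route, also known as adipsin, which averaged 10.1 ± 8.67 (WT), 23.3 ± 16.3 (C247S KI) and 1.73 ± 0.892 CPM (KO) and fell by 2.54 (SE 0.58, edgeR adjusted p = 0.0155). Against C247S KI, Fcna rose in KO and Cfd fell. Of the 10 complement receptors and membrane inhibitors 0 passed in KO against WT in edgeR (3 at an unadjusted p below 0.05, 1 with DESeq2 and 0 with limma-voom), and 1, Cd59a, rose in KO against C247S KI. The call of Cfd in KO against WT was lost with limma-voom (adjusted p = 0.079).

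Among 20 further coagulation and fibrinolysis genes 1 rose and 2 fell in KO against WT, beside 2.56% and 4.19% of all genes. Serpine2, protease nexin 1, a thrombin inhibitor, stood at 19.7, 8.34, 7.91, 10.1 and 13.2 CPM in WT libraries 1 to 5, at 9.06, 14.7, 31.0, 16.3 and 8.98 in C247S KI and at 50.7, 49.1, 45.7, 46.8 and 46.7 in KO. All 5 KO libraries exceeded all 10 others, and Serpine2 rose by 2.01 (SE 0.30, edgeR adjusted p = 0.00123). Thbd, thrombomodulin, the endothelial receptor that lets thrombin activate protein C, fell by 1.46 (SE 0.22, edgeR adjusted p = 0.00118). Plaur, the urokinase receptor, fell by 1.42 (SE 0.22, edgeR adjusted p = 0.00169) from a low level of 3.60 ± 0.662 (WT), 3.46 ± 0.863 (C247S KI) and 1.34 ± 0.320 CPM (KO). Against C247S KI, 1 rose and 3 fell in KO, beside 4.41% and 5.85% of all genes.

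Of 11 genes of the vitamin K cycle and of factor secretion 2 fell in KO against WT: Vkorc1l1, a relative of the vitamin K epoxide reductase, by 0.33 (SE 0.09, edgeR adjusted p = 0.0343) and Nqo1, a quinone reductase, by 0.74 (SE 0.21, edgeR adjusted p = 0.0438). The call of Vkorc1l1 was lost without WT 1 to WT 4, C247S KI 2 or any KO library (adjusted p up to 0.108), and that of Nqo1 without WT 2 to WT 4, C247S KI 1, C247S KI 2, KO 2, KO 3 or KO 5 (up to 0.097). Of all genes 4.19% fell in KO against WT. Against C247S KI, 3 of these genes fell and 0 rose in KO, beside 5.85% and 4.41% of all genes. The 23 other secreted plasma proteins had 0 calls in KO against WT in edgeR (4 at an unadjusted p below 0.05, and 0 with DESeq2 or limma-voom) and 5 falls in KO against C247S KI, namely Hpx, Hp, Itih3, Itih4 and Cp, named after their values were seen. C247S KI 3 held the highest value of all 5, and without C247S KI 3 and 4 the calls of Itih4 and Cp held, at adjusted p of 0.0466 and 0.0091, while Hp (0.26), Hpx (0.101) and Itih3 (0.138) lost theirs. On leaving out single libraries, Itih4 lost its call without KO 3 or KO 4 (up to 0.0532), Hp without C247S KI 3, C247S KI 4 or any KO library (up to 0.0819), Hpx without any KO library (up to 0.066) and Itih3 without C247S KI 4 or any of KO 1 to KO 4 (up to 0.0931). Cp kept its call throughout (up to 0.0364).

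Of the 18 transcription factors and receptors that drive hepatocyte secretory genes 1 rose and 1 fell in KO against WT, beside 2.56% and 4.19% of all genes. Dbp, a clock-driven factor, stood at 108, 103, 58.3, 77.4 and 79.8 CPM in WT libraries 1 to 5, at 67.8, 82.7, 73.6, 33.3 and 45.3 in C247S KI and at 131, 267, 166, 173 and 172 in KO, and each KO library lay above all others. It rose by 1.09 (SE 0.24, edgeR adjusted p = 0.0123). Stat3, the mediator of IL-6 signals, stood at 107, 120.1, 113, 133 and 171 CPM in WT libraries 1 to 5, at 174, 156, 151, 220.1 and 171 in C247S KI and at 86.6, 76.7, 83.9, 77.4 and 96.5 in KO, where the KO libraries were the lowest. It fell by 0.61 against WT (SE 0.14, edgeR adjusted p = 0.014) and by 1.05 against C247S KI (SE 0.14, edgeR adjusted p = 0.000271). In KO against C247S KI 2 of the 18 rose and 2 fell, beside 4.41% and 5.85% of all genes. The call of Stat3 against WT was lost without KO 2 (adjusted p = 0.0517).

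Markers of the cell types of liver were set beside these results. Of all genes tested in edgeR, 0.0862% passed in C247S KI against WT, 6.75% in KO against WT and 10.3% in KO against C247S KI. At an unadjusted p below 0.05 the shares were 9.85%, 23.3% and 27.0%. Of 10 hepatocyte markers 0 passed in any edgeR comparison, with 1, 0 and 2 at an unadjusted p below 0.05 in C247S KI against WT, KO against WT and KO against C247S KI. DESeq2 called 0, 0 and 1 of them and limma-voom 0. Their summed level was 17000 to 27270 CPM among WT libraries, 13380 to 28180 among C247S KI and 18960 to 25510 among KO, so hepatocyte markers were abundant in every library and the ranges overlapped. The 10 macrophage markers summed to 203 to 490.2, 98.3 to 242 and 127 to 445 CPM in the same order, with 0 called by edgeR, DESeq2 or limma-voom and 7, 2 and 1 of 10 at an unadjusted edgeR p below 0.05. Of these 10 markers, 0 had a positive log2 difference in C247S KI against WT (median -0.713) or KO against WT (median -0.207). In KO against C247S KI all 10 were positive (median 0.475). Endothelial markers summed to 154 to 397, 175 to 247.1 and 191 to 329 CPM, with 2 of 10 called lower in KO against WT and 1 called lower in KO against C247S KI. Yet 8 of the 10 endothelial markers had a positive log2 difference in KO against C247S KI (median 0.39). In KO against WT 4 were positive (median -0.101), and in C247S KI against WT 1 was (median -0.414). Stellate markers summed to 545 to 631, 395 to 619 and 195 to 513 CPM with 1 of 10 called lower in KO against WT. Of the 10 stellate markers, 0 had a positive log2 difference in C247S KI against WT (median -0.2) or KO against WT (median -0.473). In KO against C247S KI 1 was positive (median -0.296). Cholangiocyte markers summed to 45.6 to 66.4, 58.5 to 141 and 37.1 to 53.4 CPM with 2 of 8 tested called lower in KO against C247S KI. All 8 had a positive log2 difference in C247S KI against WT (median 0.536). In KO against WT 5 were positive (median 0.058), and in KO against C247S KI 0 were (median -0.437). Lymphocyte markers summed to 20.6 to 122, 31.6 to 40.7 and 13.2 to 40.7 CPM with 1 of 6 tested lower in KO against WT, and erythroid markers to 559 to 1955, 714 to 3276 and 1237 to 3768 CPM with 1 of 7 called lower in KO against C247S KI. There 5 of the 7 erythroid markers had a positive log2 difference (median 0.387). None of these markers was at 0 in all libraries, their part in the results above was not tested, and in bulk RNA fewer cells of a type cannot be told apart from less RNA per cell.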

How the data were processed

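Bulk liver RNA in 15 libraries was analysed from 1 deposited table of estimated counts per transcript, whole numbers that the authors made with kallisto 0.50.1 after Trimmomatic 0.39, per the submitters' processing notes, which also name DESeq2 and mm10. The transcript set behind kallisto is not stated in the labels. Reads that fit several transcripts were divided among them before deposit, so near-copies are uncertain. Of 115911 transcripts 114331 (98.64%) were matched to GENCODE M21 (GRCm38) by identifier without version and summed to 35540 symbols. The 1580 others, with 0.366% to 0.459% of counts, were left out.

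The listed genes and all gene lists were chosen with earlier results of these data known. Genes kept by filterByExpr (minimum count 10, minimum total 15) entered edgeR 4.0.16 (TMM factors, group means, quasi-likelihood test, all 15 libraries in one fit), adjusted by Benjamini-Hochberg over 13916 genes at 0.05. SEs are the log2 change over the root of F. Log2 CPM used a prior count of 2. Simulated counts with 200 changed genes recovered 87%, 87% and 90% of 3-fold changes and 20%, 28% and 28% of 1.5-fold changes in C247S KI against WT (13728 genes), KO against WT (13721) and KO against C247S KI (13763), so many small changes would be missed. Values in every library are given for called genes and for the gene with the lowest p per role in KO against WT, and up to 4 called genes per pathway list are named for KO against WT. Cd59a, Fcna, Hp, Saa1, Masp1, C3, Proc and Serpina10 were singled out after their values were seen. Some results are not reported here. Alternatives were DESeq2 1.42.0, limma-voom 3.58.1, other factors, filters, samples and blocks, with R 4.3.3, and figures used Python 3.11.15 with matplotlib 3.10.9. Same-group libraries differed beyond counting noise (23.1 to 373.9 as chi-square divided by its degrees of freedom, 30 pairs), and none was counted as a copy.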

Additional observations from a re-analysis of the deposited data

Results flagged for a closer look

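Of 132 sets of 5 libraries (44 genes in 3 genotypes), 9 held a library far from the others, where chance gives about 1 in 20 sets. A library was marked when its gap to its nearest neighbour exceeded 0.71 of the range of its group. In C247S KI 3 Mbl1 stood at 295.8 CPM against 125.2 in the next library, and Serpina10 at 1002.1 against 241.7. In C247S KI 5 F9 was low at 154.6 CPM, Serpind1 at 231.3 and Gc at 3768.8, against 186.0, 363.1 and 5302 in the nearest library. That library had the highest TMM factor of all, 1.248 in C247S KI 5, which lowers every CPM in it. In WT 1 C8b (268.6 CPM) and C9 (514.4 CPM) were high, against 99.4 and 321.0, and C1s1 (454.3 CPM) was low, against 532. Masp1 was low in WT 3, at 80.54 CPM against 101.7. No KO library was marked.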

How the results depend on the processing

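Of the listed genes, 0 passed in C247S KI against WT under all alternatives. In KO against WT 5 passed. The count was 3 with no count filter (2.92% of all genes called) and 3 with the replicate number as a block (7.52%). It was 9 without WT 1, C247S KI 3 and C247S KI 5 (10.9%). On leaving out 1 library it was 1 to 6 (3.7% to 8.94%). In KO against C247S KI 8 passed. The count was 13 with DESeq2 (14.2% of all genes called), 4 with no count filter (4.59%) and 4 in a fit of only the groups compared (9.5%). It was 4 without C247S KI 3 and C247S KI 4 (14.3%, added after seeing the data), and 2 to 10 on leaving out 1 library (5.56% to 16.1%). With no count filter Fgg, F9, Klkb1 and Alb lost their calls. In the fit of only the groups compared Fgb, Fgg, Klkb1 and Alb lost theirs. For single transcripts, KO against WT (0) gave 1 with limma-voom, 2 at a mean count of at least 50 and 0 to 1 on leaving out 1 library. KO against C247S KI (1) gave 2, 6 and 0 to 1, and 0 with the replicate block.

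None of the log2 differences that changed sign was a call. For C247S KI against WT, Alb (0.004) was -0.034 with limma-voom, -0.007 with upper-quartile factors, -0.020 with library totals, -0.001 with no count filter, -0.024 with the replicate block and -0.102 to 0.108 on leaving out 1 library. F9 was 0.001 with protein-coding transcripts only, 0.167 without WT 1, C247S KI 3 and C247S KI 5, and -0.073 to 0.116 on leaving out 1 library. Klkb1 was 0.156 without those 3, and Cfi -0.088 and Fgg -0.065 without C247S KI 3 and C247S KI 4. Cfi ranged from -0.048 to 0.159 on leaving out 1 library, and C6 in KO against C247S KI from -0.104 to 0.358. The cause was not tested.

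Deviations of same-numbered libraries correlated at -0.141 to 0.381, with 4 of 15 pairs over 0.1. Of the libraries, 5 were closest to their own number. These correlations cannot exclude a pairing, and the main fit used none. With the replicate block C6 (adjusted p = 0.0606) and F11 (0.059) were not called in KO against WT. Neither were Fgb (0.0808) and Fgg (0.0917) in KO against C247S KI, where 7 listed genes passed, C4b among them, beside 11.5% of all genes. With 5 libraries per genotype few small changes can be called. Each call but those of Cfi was lost on leaving out some single library, where the share of all genes called moved too.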
